A study of Mus musculus with 2 samples.

Results

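The mitochondrial ribosomal protein genes are the nuclear genes for the proteins of the mitochondrial ribosome. They were chosen by name and level, as all rows of the deposited gene table whose symbol begins with Mrpl or Mrps and a number and whose mean value over both libraries was at least 50. The rule found 76 genes, 47 named for the large subunit (Mrpl) and 29 named for the small subunit (Mrps), of 14398 genes in the table, of which 12679 had a mean of at least 50. Another 2 rows fit the name but not the level, the pseudogenes Mrpl23-ps1 (41.2 in ID2 cells and 37.8 in control cells) and Mrpl48-ps (18.1 in ID2 cells and 37.8 in control cells). They were well apart from the lowest gene inside the limit, Mrps18c, whose mean was 169. Mrpl53, another large-subunit protein, was not analysed here.

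Total RNA was sequenced from the mouse embryonic stem cell line 46C, which has a GFP reporter at the neural gene Sox1. In the ID2 group (label PB-ID2) the cells were transfected with a vector for overexpression of ID2, and in the control group (label PB) with the empty vector. Cells of both groups were at passages 21 to 24 and grew in serum medium on gelatin, with leukemia inhibitory factor (LIF), which keeps such cells self-renewing. The labels used here give neither the promoter of the vector nor whether the cells were a clone or a pool. Each group had 1 library, so no spread between replicates exists, no test of a group difference was possible, and every value below describes these 2 cultures.

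The mitochondrial ribosome reads the few messenger RNAs made from mitochondrial DNA, which encode core subunits of the respiratory chain and the ATP synthase. Its RNAs come from mitochondrial DNA, while its proteins are encoded in the nucleus, translated in the cytosol and imported, so the supply of many unlinked nuclear genes has to be matched. Some of the proteins descend from those of the bacterial ribosome, and others were added in mitochondria and have no bacterial counterpart. Embryonic stem cells rely strongly on glycolysis and have rather immature mitochondria. ID2 is a helix-loop-helix protein that cannot bind DNA itself and holds E proteins away from E-box sequences.

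Id2 itself had a normalized value of 26225 in the ID2 library and 324 in the control library, 80.6-fold higher. All 10 pluripotent stem cell markers examined lay above the level limit, at 4775 to 29549 in ID2 cells and 3823 to 27618 in control cells. Of 9 fibroblast markers, 5 were listed and 4 passed the limit, and the listed ones summed to 1605 in ID2 cells and 2305 in control cells; Col3a1, Dcn, Lum and Postn were not listed. Of 4 neural markers, Pax6 was not listed and the other 3 summed to 2349 in ID2 cells and 1719 in control cells. These 3 spanned 231 to 1336 in ID2 cells and 386 to 908 in control cells, so they did not share a direction. The part of other cells in the results below was not tested. The deposited values of both libraries, sorted from high to low, are the same list of whole numbers times a constant, so the libraries had been set to a common distribution. Their depth is therefore unknown, and a change of the whole transcriptome could not appear in them.

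Start regions of the genes are shown first, because a large share of the mitochondrial ribosomal protein genes sits head to head with another gene, the starts facing away from each other across a short stretch of DNA that both genes have as their upstream sequence. In the GENCODE annotation of GRCm38, 25 of the 76 genes (32.9%) had such a neighbour with starts at most 1000 bp apart, or overlapping by at most 300 bp. Among all 11507 protein-coding genes above the level limit, 1464 (12.7%) had one. Both partners are mitochondrial ribosomal protein genes in 1 of these pairs, Mrps11 and Mrpl46, whose starts lie 30 bp apart. The stretches below are the bases between the 2 starts, in RefSeq build GRCm38.p6 and read 5′ to 3′ toward the ribosomal protein gene (toward Mrps11 for that pair), and for Mrps18a the 100 bases before its start. They were picked because these genes carry the results described further on: the opposed pair, the member with the lowest mean, members among the 10 highest, and a gene with a different motif. Capitals mark a match to the ETS motif CCGGAAG, the type bound by GABPA (nuclear respiratory factor 2), or to the NRF1 core motif (GCGCA and GCGC with any 1 base between them), on either strand. Of 12 stretches between head-to-head starts that were searched, counting that of Mrps11 and Mrpl46 from each side, 4 held a match. All 4 are printed here, so the printed stretches do not show the usual share of matches. The stretch between Mrpl10 and Lrrc46 held none and is left out, although Mrpl10 is among the 10 highest members.
Mrps11 and Mrpl46, chr7:78783090-78783118, plus strand: ccatgaggcaacgcgggccggcgaggggc
Mrps18c and Helq, chr5:100798599-100798626, plus strand: gtgaCTTCCGGcccgggaagcgcgggaa
Mrps27 and Ptcd2, chr13:99344706-99344785, plus strand: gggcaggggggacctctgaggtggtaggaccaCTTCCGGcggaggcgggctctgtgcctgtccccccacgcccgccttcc
Mrpl43 and Twnk, chr19:45006443-45006557, minus strand: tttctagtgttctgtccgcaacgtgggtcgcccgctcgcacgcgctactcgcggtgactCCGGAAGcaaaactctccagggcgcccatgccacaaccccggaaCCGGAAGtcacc
Mrpl57 and Ska3, chr14:57826164-57826233, plus strand: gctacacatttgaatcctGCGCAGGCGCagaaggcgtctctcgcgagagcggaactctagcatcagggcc
Mrps18a, chr17:46110886-46110985, plus strand: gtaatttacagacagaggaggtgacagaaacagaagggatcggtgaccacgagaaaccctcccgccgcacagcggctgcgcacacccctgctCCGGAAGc

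The mitochondrial ribosomal protein genes as a set stood at almost the same level in ID2 and control cells. Their values summed to 93779 in ID2 cells and 91809 in control cells, a ratio of 1.02, and made up 0.370% of all signal in ID2 cells and 0.366% in control cells. The log2 ratio of ID2 to control, taken after adding 1 to both values, had a median of -0.0021 over the 76 genes, beside -0.0023 over all 12679 genes above the limit. The mean was 0.02, of the opposite sign to the median, and both lie within 0.02 of zero. By the sign of the ratio, 37 of the 76 genes were higher and 39 lower in ID2 cells, and of all genes above the limit 49.8% were higher and 50.2% lower. In RNA from whole cultures, fewer cells of a type and less RNA per cell cannot be told apart.

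**Figure D1:**
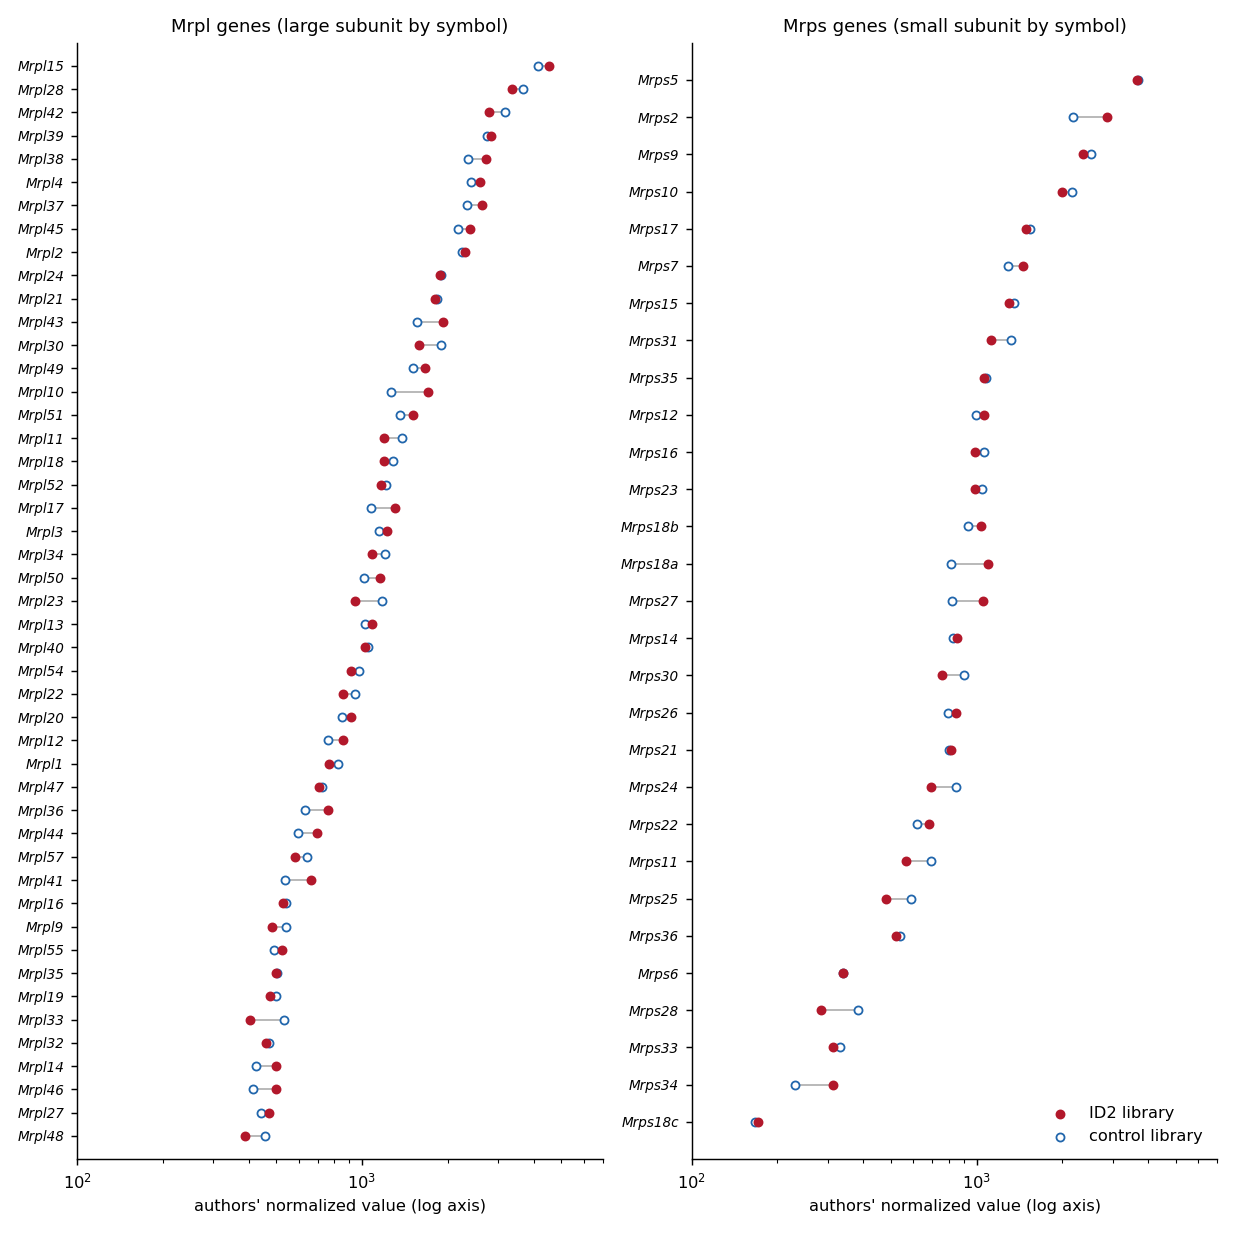
Normalized value of each of the 76 genes in the ID2 library (filled red) and the control library (open blue) on a log axis, with the 47 Mrpl genes on the left and the 29 Mrps genes on the right, ordered by their mean. The symbols of most genes lie close together or overlap, and the lines that join them are longest for genes such as Mrps34, Mrps18a and Mrpl10 (ID2 higher) and Mrps28 and Mrpl33 (ID2 lower).

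The genes also differed little among themselves. Their log2 ratios ran from -0.42 to 0.44, with an SD over genes of 0.20, against 0.46 over all genes above the limit and 0.39 over the 9207 genes within the same range of mean levels. A difference of 25% was used as a size mark: a gene passed it on the high side where its ID2 value was at least 25% above its control value, and on the low side where its control value was at least 25% above its ID2 value, which is 0.32 on the log2 scale. On the high side were 5 of the 76 (6.58%), beside 18.2% of all genes, and on the low side 2 (2.63%), beside 16.4%. In either direction that made 7 genes (9.21%), against 34.7% of all genes and 31.1% of those in the same range of levels. None of the 76 was 2-fold apart, a size that 4.39% of all genes and 2.42% of those in the same range reached. No test of these differences from the background was possible with 1 library a group, and since genes of 1 complex share a library, they are not independent. In the authors' deposited table, 0 of the 76 had an unadjusted p below 0.05, the smallest was 0.178 (Mrpl10), and the adjusted p was 1 for each, while 554 of 14398 genes (3.85%) were below 0.05 unadjusted and 26 adjusted. How the spread behind those p-values was obtained from 1 library a group is not known here.

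**Figure D2:**
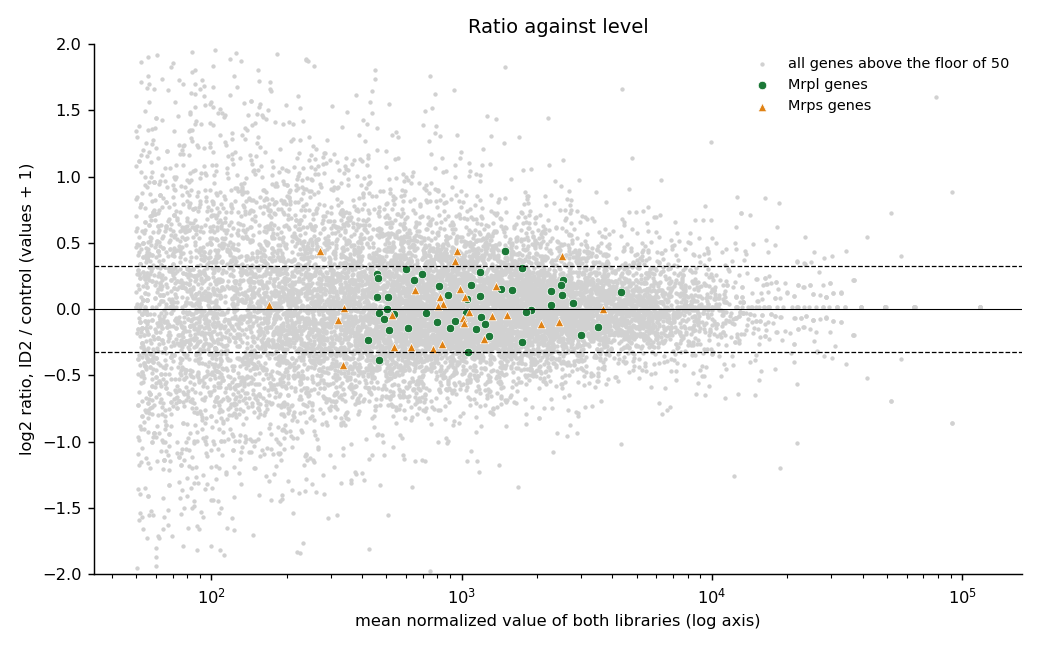
Log2 ratio of ID2 to control against the mean value of both libraries (log axis) for all genes above the limit (grey), Mrpl genes (green circles) and Mrps genes (orange triangles). Dashed lines stand at the 25% mark, which 7 of the 76 genes pass, and 41 genes beyond a log2 ratio of 2 in either direction lie outside the plotted range.

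The large and the small subunit were compared by their medians. The 47 Mrpl genes had a median log2 ratio of 0.03 (mean 0.03, SD over genes 0.18) and the 29 Mrps genes a median of -0.02 (mean -0.00092, SD 0.22), a difference of medians of 0.05. In values, the Mrpl genes summed to 62590 in ID2 cells and 60976 in control cells, and the Mrps genes to 31189 in ID2 cells and 30833 in control cells. By sign, 24 Mrpl genes were higher and 23 lower, and 13 Mrps genes were higher and 16 lower. The genes past the 25% mark were mostly Mrps genes, with 4 higher and 1 lower of 29 (17.2%), against 1 higher and 1 lower of 47 Mrpl genes (4.26%); both shares lie below the 34.7% of all genes. The symbol does not always give the subunit: in structures of the mammalian ribosome the products of Mrps18a and Mrps30 sit in the large subunit, and the product of Mrps36 belongs to the oxoglutarate dehydrogenase complex. With the genes placed by structure, the difference of medians was 0.04. Past the 25% mark were then 3 higher and 1 lower of 26 small-subunit genes, and 2 higher and 1 lower of 49 large-subunit genes. With the genes placed by symbol, the difference of medians was 0.11 over members with a mean of at least 1000. The difference of means over all members was 0.03.

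The genes that were higher in ID2 cells came from both subunits. Mrps34, a small-subunit protein that helps to hold the ribosomal RNA, had a normalized value of 314 in ID2 cells and 231 in control cells, a log2 ratio of 0.44. Mrps18a had 1099 in ID2 cells and 812 in control cells (0.44). Mrpl10, which anchors the stalk that recruits translation factors, had 1709 in ID2 cells and 1264 in control cells (0.44). All 3 stood about equally far above control. Mrps2, a bacterial-type protein of the small subunit, had 2862 in ID2 cells and 2171 in control cells (0.40), and Mrps27, a mitochondria-specific pentatricopeptide repeat protein, had 1055 in ID2 cells and 821 in control cells (0.36). These 5 are the members past the 25% mark on the high side. The next 5 were all large-subunit genes and lay short of the mark: Mrpl43 (1929 in ID2 cells, 1558 in control cells), Mrpl41 (661 in ID2 cells, 537 in control cells), Mrpl17 (1302 in ID2 cells, 1073 in control cells), Mrpl46 (500.4 in ID2 cells, 416 in control cells) and Mrpl36 (759 in ID2 cells, 633 in control cells). Their log2 ratios ran from 0.31 for Mrpl43 to 0.26 for Mrpl36.

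The 2 genes past the 25% mark on the low side both encode bacterial-type proteins. Mrps28 had a normalized value of 285 in ID2 cells and 383 in control cells, a log2 ratio of -0.42, and Mrpl33 had 406 in ID2 cells and 531 in control cells (-0.39). The next below them included genes of opposite sides of the ribosome. Mrpl23, at the peptide exit tunnel, had 945 in ID2 cells and 1180 in control cells (-0.32), just short of the mark. Mrps24 had 689 in ID2 cells and 849 in control cells (-0.30), and Mrps11 had 565 in ID2 cells and 690 in control cells (-0.29). The rest of the lowest 10 spanned log2 ratios of -0.28 to -0.23 and were Mrps25 (482 in ID2 cells, 587 in control cells), Mrps30 (756 in ID2 cells, 906 in control cells), Mrpl30 (1588 in ID2 cells, 1888 in control cells), Mrpl48 (388 in ID2 cells, 456 in control cells) and Mrps31 (1127 in ID2 cells, 1322 in control cells). The other 56 genes had log2 ratios between those of Mrps31 and Mrpl36.

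Proteins of 1 functional site did not share a direction. At the stalk base, Mrpl10 was higher (0.44), Mrpl12, the stalk protein itself, had 858 in ID2 cells and 761 in control cells (0.17), and Mrpl11, which holds the base of the stalk, had 1197 in ID2 cells and 1377 in control cells (-0.20). Around the exit tunnel the 6 genes examined had a median of -0.02, with 2 higher and 4 lower. Of these, Mrpl44 (693 in ID2 cells, 596 in control cells) and Mrpl45 (2388 in ID2 cells, 2169 in control cells), both without a bacterial counterpart, had ratios of 0.22 and 0.14. The bacterial-type tunnel proteins Mrpl22 (856 in ID2 cells, 945 in control cells), Mrpl23, Mrpl24 (1883 in ID2 cells, 1897 in control cells) and Mrpl47 (709 in ID2 cells, 724 in control cells) had ratios of -0.14, -0.32, -0.01 and -0.03. The 3 paralogs related to bacterial S18 were each at or above control: Mrps18a at 0.44, Mrps18b (1037 in ID2 cells, 933 in control cells) at 0.15 and Mrps18c (171 in ID2 cells, 167 in control cells) at 0.03. Mrps36, by contrast, had 521 in ID2 cells and 537 in control cells (-0.05).

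Split by ancestry, the mitochondria-specific proteins of the large subunit had the highest median. Those 16 genes had a median log2 ratio of 0.15, with 11 higher and 5 lower, and none reached the 25% mark. The 30 bacterial-type large-subunit genes had a median of -0.02, the 10 mitochondria-specific small-subunit genes 0.03 and the 16 bacterial-type small-subunit genes -0.02. Over both subunits the 26 mitochondria-specific genes had a median of 0.14 and the 46 bacterial-type genes -0.02. Examples of the first kind are Mrpl38 (2733 in ID2 cells, 2349 in control cells) and Mrpl37 (2641 in ID2 cells, 2331 in control cells), and on the other side Mrpl42 (2790 in ID2 cells, 3189 in control cells). No test of the gap between the 2 kinds was possible. Mrps18b (0.15) was counted as mitochondria-specific, although it is a paralog related to bacterial S18. Mrpl57 (-0.14), Mrps18a (0.44), Mrps30 (-0.26) and Mrps36 (-0.05) were in none of these 4 classes. The medians depend on this placement, and medians with these genes placed otherwise were not computed.

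**Figure D3:**
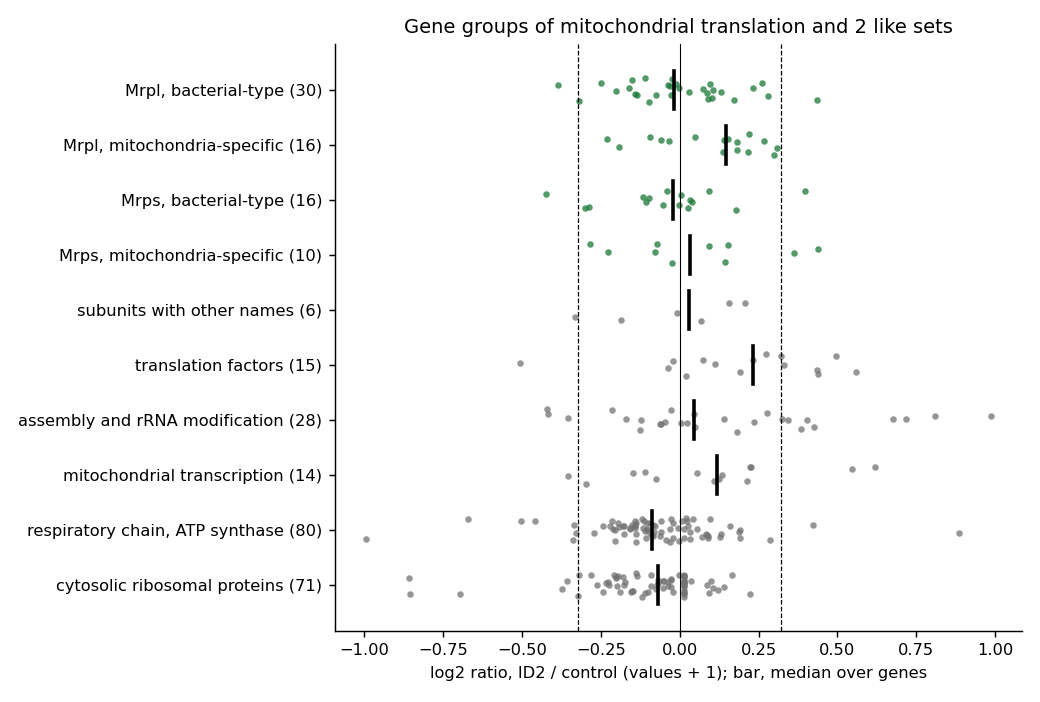
Log2 ratio of ID2 to control for each gene (points, spread vertically at random for sight) in 4 classes of mitochondrial ribosomal protein genes (green) and in related gene groups (grey), with the number of genes in brackets and a bar at the median. Dashed lines stand at the 25% mark; the class medians lie between -0.02 and 0.15, and that of the translation factors is 0.23.

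The ratios were somewhat wider at low levels, for these genes as for the table. Among the 38 members with a mean below 1001 the median size of the log2 ratio, regardless of sign, was 0.14 and 5 (13.2%) passed the 25% mark, against a size of 0.25 and 38.9% of all genes in the same range of levels. Among the 38 members above it the size was 0.12 and 2 (5.26%) passed, against 0.16 and 21.8% of all genes in that range. The largest values, which are not corrected for length, were those of Mrpl15 (4547 in ID2 cells, 4156 in control cells), Mrps5 (3668 in ID2 cells, 3670 in control cells) and Mrpl28 (3352 in ID2 cells, 3682 in control cells). At the low end, Mrps18c and Mrps34 are given above, and Mrps33 had 313 in ID2 cells and 330 in control cells. Per kilobase of 1 annotated transcript a gene, the value was highest for Mrpl42 (4188 in ID2 cells, 4788 in control cells), Mrpl28 (3139 in ID2 cells, 3448 in control cells) and Mrpl52 (2796 in ID2 cells, 2912 in control cells). It was lowest for Mrps25 (79.4 in ID2 cells, 96.7 in control cells), Mrpl19 (94.9 in ID2 cells, 99.9 in control cells) and Mrpl48 (90.5 in ID2 cells, 106 in control cells). The annotated transcripts of these last 3 are long (6073, 5000 and 4285 bases), so their low place depends on the transcript chosen. The order of the 76 genes per kilobase was nearly the same in both libraries (Spearman's rho 0.98 across genes, which share libraries and lengths). Median values per kilobase were 852 in ID2 cells and 823 in control cells for the large subunit, and 683 in ID2 cells and 657 in control cells for the small subunit.

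Head-to-head partners were compared with the ribosomal protein genes they face. Of the 25 genes with such a neighbour, 22 had one above the level limit. The partner's ratio had the same sign as the ribosomal protein gene's in 10 of these 22 (45.5%; Mrps11 and Mrpl46 are counted from each side). Over all 1268 coding genes with such a partner above the limit, the sign was the same in 55.0%. The members' partners had a median log2 ratio of 0.12, beside 0.05 for the partners over all such genes. Past the 25% mark were 4 of the 22 (18.2%), against 26.3% of the partners over all such genes and 34.7% of all genes above the limit. The pair whose intervening 29 bases are printed above was opposed, with Mrps11 at -0.29 and Mrpl46 at 0.27. Mrps27 (0.36) and Ptcd2 (886 in ID2 cells, 850 in control cells, 0.06) were both higher, and Mrps18c (0.03) and Helq (792 in ID2 cells, 840 in control cells, -0.08) were both near zero. Mrpl57, which had 580 in ID2 cells and 639 in control cells (-0.14), faced Ska3 with 1260 in ID2 cells and 1087 in control cells (0.21).

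The widest gap was at Mrps18b. Its partner Ppp1r10, a regulatory subunit of protein phosphatase, had 1505 in ID2 cells and 354 in control cells, 4.24-fold higher, while Mrps18b stood at 0.15 with its start 807 bp away. Zfp189, a zinc finger gene, had 169 in ID2 cells and 103 in control cells (0.71) beside Mrpl50 with 1154 in ID2 cells and 1018 in control cells (0.18). Pnpla7, a lysophospholipase gene, had 448 in ID2 cells and 637 in control cells (-0.51) beside Mrpl41 at 0.30. A further limit concerns overlap: 22 of the 76 genes share exonic bases with another annotated gene, and the library kit does not mark strand, so their reads cannot be told apart from the other gene's where the counting did not separate them. The shared part is 59.1% of the Mrps18b transcript (with Gm16279), 58.2% of Mrps25 (with Nr2c2) and 43.6% of Mrpl24 (with Rrnad1). It is 39.2% of Mrpl19 (with Gcfc2), 36.1% of Mrps6 (with Gm49711), 27.5% of Mrpl43 (with Twnk), 27.3% of Mrps18c and 27.0% of Mrpl13. Lower shares include 22.6% of Mrps27, 22.4% of Mrpl33 and 14.1% of Mrpl10.

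**Figure D4:**
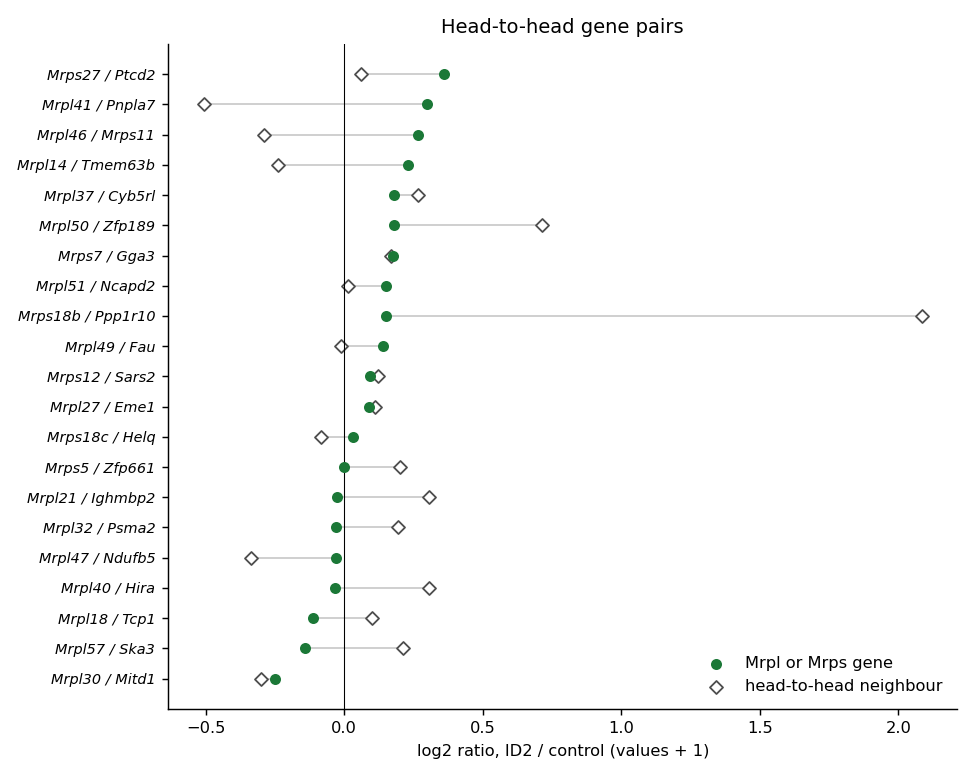
Log2 ratio of ID2 to control for each mitochondrial ribosomal protein gene (filled green) and its head-to-head neighbour (open diamond), for the pairs with both genes above the level limit. The lines run in both directions, all but 4 partners lie short of the 25% mark, and Ppp1r10, beside Mrps18b, lies far to the right at 2.08.

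Motifs were counted in the RefSeq start windows of GRCm38.p6, 250 bases before to 50 after the start, on both strands. Of the 76 genes, 67 had a window; Mrpl13, Mrpl15, Mrpl19, Mrpl38, Mrpl4, Mrpl54, Mrps28, Mrps34 and Mrps35 had none. The YY1 motif AANATGGC was found in 20 of the 67 windows (29.9%), against 9.13% of 9397 windows of all genes above the level limit. The ETS motif CCGGAAG was found in 23 (34.3%, against 19.0%) and the NRF1 core in 13 (19.4%, against 11.0%). NRF1, GABPA and YY1 are known regulators of nuclear genes for mitochondrial proteins. The E-box CANNTG, which takes in the next pair of motifs, was found in 62.7% of the members' windows and 62.3% of all windows. Its form CACGTG, bound by MYC, was in 7.46% of members' windows and 10.5% of all, and the form CAGGTG, bound by E proteins, in 11.9% of members' windows and 18.2% of all. Windows of the members held a median of 58% G and C, against 61.7% over all genes, so base composition differed too, and no test of the shares was run. A match is a description of the letters and not a bound site.

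Median ratios of the members differed most by motif for the E-box form CACGTG. The 5 genes with a match to it had a median log2 ratio of 0.10 and those without one -0.03. For the form CAGGTG it was 0.06 with a match and -0.01 without. The 23 genes with an ETS match had a median log2 ratio of 0.03 and those without one -0.02. With the NRF1 core the median was 0.05, against -0.02 without it. For YY1 it was -0.0069 with a match and -0.00095 without. For any E-box it was 0.0023 with a match and -0.04 without. In the printed stretches the ETS match begins 8 bases before the start of Mrps18a, 48 before that of Mrps27 and 24 before that of Mrps18c, whose ratios were 0.44, 0.36 and 0.03. Mrpl43, with 2 ETS matches, stood at 0.31. Other members with an ETS match in the start window were lower, among them Mrpl33 (-0.39), Mrpl48 (-0.23), Mrpl34 (-0.15) and Mrpl22 (-0.14). Mrpl10 (0.44) and Mrps2 (0.40) had no ETS match in their windows. Myc, chosen for mention after its values were seen, had 349.7 in ID2 cells and 80.6 in control cells. Its part in the ratios above was not tested, and median ratios by motif over all windows were not computed. No test of a difference by motif was possible.

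**Figure D5:**
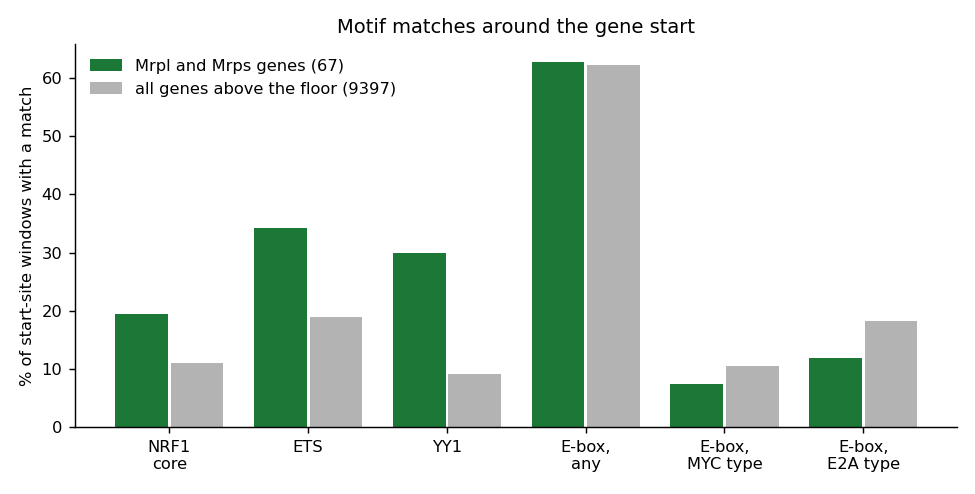
Percent of start windows with at least 1 match to each motif on either strand, for the 67 mitochondrial ribosomal protein genes with a window (green) and for 9397 genes above the level limit (grey). The green bar is the taller for NRF1, ETS and YY1, about equal for any E-box, and the shorter for both special E-box forms.

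Subunits whose symbols fall outside the naming rule were similar. The 6 found had a median log2 ratio of 0.03 (-0.10 over those with a mean of at least 1000) and a mean of -0.02, with 3 higher and 3 lower. Ict1, a peptidyl-tRNA hydrolase built into the large subunit, had 661 in ID2 cells and 572 in control cells (0.21), and Aurkaip1 had 2540 in ID2 cells and 2280 in control cells (0.16). Gadd45gip1 had 277 in ID2 cells and 265 in control cells (0.07), and Chchd1 had 1026 in ID2 cells and 1032 in control cells (-0.0084). The small-subunit proteins Dap3, which binds GTP, and Ptcd3, which carries pentatricopeptide repeats, were on the low side. Dap3 had 2728 in ID2 cells and 3105 in control cells (-0.19), and Ptcd3 had 1990 in ID2 cells and 2506 in control cells (-0.33), the only one of the 6 past the 25% mark.

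Among genes that serve the mitochondrial ribosome, more were higher than lower in ID2 cells. The 15 mitochondrial translation factors had a median log2 ratio of 0.23 (0.074 over those with a mean of at least 1000), with 12 higher and 3 lower, and 5 higher and 1 lower past the 25% mark. The largest ratios were those of the release factor gene Mtrf1l (143 in ID2 cells, 96.5 in control cells, 0.56), the elongation factor gene Guf1 (661 in ID2 cells, 939 in control cells, -0.51) and the initiation factor gene Mtif3 (410.0 in ID2 cells, 291 in control cells, 0.50). For 28 genes of ribosome assembly and ribosomal RNA modification the median was 0.05 and the mean 0.14, with 9 higher and 3 lower past the 25% mark. Here the GTPase gene Mtg2 (542 in ID2 cells, 273 in control cells, 0.99), the endonuclease gene Ybey (229 in ID2 cells, 130.4 in control cells, 0.81) and the helicase gene Ddx28 (694 in ID2 cells, 422 in control cells, 0.72) stood furthest from control. Past the mark on the high side were thus 33.3% of the translation factors and 32.1% of the assembly genes, against 6.58% of the ribosomal proteins and 18.2% of all genes; no test of these differences was possible.

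For 14 genes of mitochondrial transcription and its regulators the median was 0.12. Mterf1a (111 in ID2 cells, 71.7 in control cells, 0.62) and Tefm (230.1 in ID2 cells, 157 in control cells, 0.55) were highest, and Slirp (303 in ID2 cells, 388 in control cells, -0.35) lowest. Nrf1 itself had 1521 in ID2 cells and 1300 in control cells (0.23), Gabpa 5448 in ID2 cells and 5735 in control cells (-0.07), and Yy1 2160 in ID2 cells and 1853 in control cells (0.22). None of these genes was 2-fold apart.

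The 2 most similar gene sets lay slightly to the low side. Ribosomal proteins of the cytosol (71 genes) had a median log2 ratio of -0.07, with an SD over genes of 0.20 and 0 higher and 5 lower past the 25% mark (7.04%), and 16 of them had exactly the same whole number in both libraries before the constant. Genes named for the respiratory chain and ATP synthase (80 genes) had a median of -0.09, with an SD of 0.22 and 2 higher and 7 lower past the 25% mark (11.2%). Both sets were chosen by symbol alone, so not every gene in them need encode a subunit. Cox7a2l (-0.50) and Ndufa4l2 (-0.67), for example, are among the 7 lower. Both shares, like the 9.21% of the mitochondrial ribosomal proteins, lie below the 34.7% of all genes, so a narrow spread was also found in these sets. The mitochondrial ribosomal proteins thus differed from these sets by less than 0.1 in the median, and no test of that difference was possible. The cytosolic set also lies at higher levels, with a median mean of 21298, against 1001 for the members. Rps2 had the highest value of both libraries (118714 in ID2 cells, 117568 in control cells). Rps24 and Rps3 had the same top value in the control library, against 64918 and 64833 in ID2 cells. Atp5b had the top value of the ID2 library, against 64291 in control cells. Before the constant, the whole number of Rps24 in ID2 cells (64604) was also that of Atp5b in control cells. The part of the common distribution in such ratios was not tested.

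Transcript form was examined because ratios over the whole table moved with it. Protein-coding genes with at least 80% of their transcript in 1 exon had a median log2 ratio of 0.12 (1569 genes), and the rest -0.0096 (9938 genes). Among the mitochondrial ribosomal proteins, 18 had such a transcript, with a median of 0.02, against -0.0057 for the other 58. Of the 5 highest genes, Mrps2 had such a transcript. The part of transcript form in the results was not tested.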

How the data were processed

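RNA sequencing libraries of 46C mouse embryonic stem cells were compared, 1 from cells overexpressing ID2 and 1 from cells with the empty vector, grouped by the labels' genotype. Per the labels' protocols, the libraries were built from Trizol-extracted RNA with a TruSeq kit that does not mark strand. STAR, DESeq and build mm9 are named in the submitters' processing notes; their versions, the annotation and the counter are not stated there.

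The deposited table gave, per the file headers, a normalized signal value per gene and library and their mean. The authors deposited for each gene a fold (ID2 over control), its log2, and raw and adjusted p-values. Each deposited signal value was a whole multiple of 1.005 in the ID2 library and of 0.995 in the control library, within 0.01 of a step. Sorted, the whole numbers of both libraries differed at 0 ranks and summed to 25224015 in each, so a common distribution had been imposed, the depth is unknown and no counting interval could be given.

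Log2 ratios of ID2 to control were computed after adding a pseudocount of 1, which understates ratios of low genes; the level limit was a mean of 50. Counts past a difference of 25% and of 2-fold are by size alone, since 1 library a group allows no test. Scripts were tested on simulated data. Transcript lengths, exons and neighbours came from 1 principal transcript a gene in GENCODE (GRCm38), another build than the table's, whose own coordinates are not given; sequences came from RefSeq (GRCm38.p6). Python 3.11.15, numpy 2.4.6, pandas 2.3.3 and matplotlib 3.10.9 were used.

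The members, gene lists and thresholds were chosen with earlier results of these data known. Values are given for the 10 members with the highest and the 10 with the lowest ratio, the 3 highest and 3 lowest by mean, those nearest the level limit, the members of the functional sites described, each subunit outside the naming rule, and the 3 genes furthest from zero in each other list. Other genes with values were added as examples after their values were seen. Alternatives were other scalings, pseudocounts of 0.1 and 10, no limit and limits of 250 and 1000, a 1.5-fold size, means in place of medians, the authors' log2 values, subunits assigned by structure, added subunits and no pseudogenes.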

Additional observations from a re-analysis of the deposited data

How the results depend on the processing

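Of 140 values of 14 summary results under the alternatives, 132 stayed within the tolerance (0.1 on the log2 scale, 1.5 times for a count) and 8 moved. The sign changed in 4 values, 1 of them beyond the tolerance (the subunits outside the naming rule at the limit of 1000) and 3 within it: the median of all members, 0.00019 after rescaling and 0.02 as a mean, and that of the subunits outside the naming rule, -0.02 as a mean. Most scalings and pseudocounts can hardly pass that tolerance at these levels, so the count is no measure of stability. With a level limit of 1000, which leaves 38 members, 2 passed the 25% mark on the high side and 0 on the low side, 18 were higher by sign, a count added after seeing the data, the median of the subunits outside the naming rule was -0.10, and that of the translation factors was 0.074. At a 1.5-fold size, 0 members were on the high side and 0 on the low side. Shares of all genes were not computed at 1.5-fold or at the limit of 1000, so these counts have no background beside them. With no level limit, 1 row was 2-fold apart, the pseudogene Mrpl48-ps, at 18.1 in ID2 cells and 37.8 in control cells. The difference of medians between large and small subunit was 0.05, 0.11 with the limit of 1000 and 0.03 as a difference of means. On the whole numbers before the size factors every log2 ratio shifts by -0.01, which makes 36 members higher and 40 lower. It also puts 3 members in place of 2 past the 25% mark on the low side, with Mrpl23 at -0.34. The share of all genes past the mark on that scale was not computed. All 695 alternative values of 139 single genes stayed within the tolerance. No paired analysis was possible because each group had 1 library. There were no replicates: differences between cultures of 1 kind, of the size seen here, cannot be told apart from an effect of ID2, and with the depth unknown no counting error can be set against them.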
